A study of Mus musculus with 6 samples.

Results

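The genes described here are 9 genes of myelin and of the mature oligodendrocyte: Mbp, Mobp, Mag, Mog, Cnp, Ermn, Tspan2, Opalin and Myrf. They were chosen by name in the array files, where Opalin is listed as Tmem10 and Myrf as Gm98, and they are read by 15 of the 55681 probes that are not controls (9 of 35010 gene symbols). Brain tissue came from male BALB/c mice, an inbred strain, at an age of 8 weeks. The mice received a single intranasal dose of PAMAM dendrimers, branched polyamidoamine polymers, at 0.15 mg/kg body weight, or of saline alone, and tissue was taken 24 h later. The 6 groups were the olfactory bulb, the hippocampus and the cerebral cortex, each with PAMAM and with saline, and all shared strain, sex, age, route and time. Each group was measured on 1 Agilent array with RNA pooled from 6 independent experiments, so the variation between animals cannot be seen.

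Oligodendrocytes wrap axons in the central nervous system with myelin, a stack of compacted cell membrane that speeds the conduction of nerve impulses. Mbp encodes myelin basic protein, which holds the cytoplasmic faces of the compacted membrane together, and Mobp encodes another basic protein of compact myelin. Mag and Mog are immunoglobulin-like proteins, one at the inner wrap facing the axon and the other on the outer surface of the sheath. Cnp, an enzyme bound to membrane and cytoskeleton, marks the non-compacted channels of the sheath, and Ermn (ermin) is a cytoskeletal protein of mature oligodendrocytes. Tspan2 and Opalin are membrane proteins of maturing and mature oligodendrocytes. Myrf is a membrane-bound transcription factor that cuts itself free and switches on myelin genes. In pieces of whole tissue, fewer oligodendrocytes and less of an RNA per oligodendrocyte cannot be told apart.

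Each probe is a 60-base DNA sequence on the slide, placed by the array files on build mm9. The probes of a gene are numbered from the brightest down. The sequences of 4 probes are given from 5′ to 3′: Ermn probe 1 and Mobp probe 2, which parted from another probe of their gene, Opalin, which differed most between regions, and Myrf, which differed most with PAMAM. Ermn probe 1 lies at chr2:57900470-57900529 on the minus strand and holds a GAA repeat, in capitals, while probe 2 lies at chr2:57897554-57897613 and has no such repeat. Mobp probe 2 lies at chr9:120077006-120077065 on the plus strand. The Opalin probe spans an intron between chr19:41138452 and 41141030, and the Myrf probe spans one between chr19:10284933 and 10285125, both on the minus strand. No annotation of build mm9 was used here, so exon and UTR are not given.
Ermn repeat probe: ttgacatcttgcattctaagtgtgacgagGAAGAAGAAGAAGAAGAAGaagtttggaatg
Mobp probe 2: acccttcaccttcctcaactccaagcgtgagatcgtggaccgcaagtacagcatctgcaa
Opalin probe: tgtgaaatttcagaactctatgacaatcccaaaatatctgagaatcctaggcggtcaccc
Myrf probe: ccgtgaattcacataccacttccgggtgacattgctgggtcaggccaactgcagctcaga

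Levels are log2 of the processed signal relative to the 75th percentile of the same array, so 0 is a spot as bright as that percentile. Levels of different probes are not compared. A difference of 1 is 2-fold. On the 6 arrays 34134 to 39057 of 59305 spots were well above background and 0 were saturated, and the array count limits precision. Of the 15 probes, 14 were well above background on all arrays, and the Myrf probe was so on both hippocampal arrays alone. Each region label was set against 6 marker genes. All 6 of 6 olfactory bulb and 6 of 6 hippocampal markers were highest in their own region under both treatments, and 4 (PAMAM) and 5 (saline) of 6 cortical markers in the cortex.

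The olfactory bulb held less of these RNAs than the hippocampus or the cortex. For the compact-myelin protein Mbp, probe 1 read 2.24, 3.87 and 4.16 in olfactory bulb, hippocampus and cortex with PAMAM, and 2.23, 3.71 and 3.69 with saline. Mobp probe 1 read 3.06, 4.31 and 4.66 with PAMAM, and 3.14, 4.10 and 4.61 with saline. Both olfactory bulb arrays were below all 4 others for these probes, a separation not counted over all probes.

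The membrane proteins of the sheath were lowest in the olfactory bulb as well. Mag read 2.44, 3.83 and 4.11 in olfactory bulb, hippocampus and cortex with PAMAM, and 2.57, 3.64 and 4.23 with saline. Mog read -0.23, 0.82 and 0.64 with PAMAM, and -0.08, 0.74 and 0.99 with saline. For Mag the cortex was higher than the hippocampus under both treatments, while for Mog it was lower with PAMAM and higher with saline. Tspan2 probe 1 read 1.59, 3.31 and 3.47 with PAMAM, and 1.84, 3.34 and 3.59 with saline. Opalin, dimmer than the 75th percentile on every array, read -3.48, -1.21 and -1.25 with PAMAM, and -3.18, -1.08 and -0.61 with saline. For Opalin the lowest values were again the 2 of the olfactory bulb.

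Of the genes tied to the cytoskeleton, Cnp read 2.05, 3.22 and 3.25 in olfactory bulb, hippocampus and cortex with PAMAM, and 2.17, 3.19 and 3.50 with saline. The 2 probes of Ermn placed the olfactory bulb at opposite ends. The probe without the repeat gave -0.11, 1.39 and 1.46 with PAMAM, and -0.16, 0.99 and 1.51 with saline, again lowest in the olfactory bulb. The repeat probe gave 5.24, 4.58 and 4.76 with PAMAM, and 4.92, 4.66 and 4.73 with saline, so that for it the olfactory bulb was highest. The transcription factor Myrf was dim, at -5.86, -2.13 and -4.70 with PAMAM, and -5.32, -4.31 and -4.57 with saline, and stood out on the hippocampal PAMAM array alone.

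**Figure D1:**
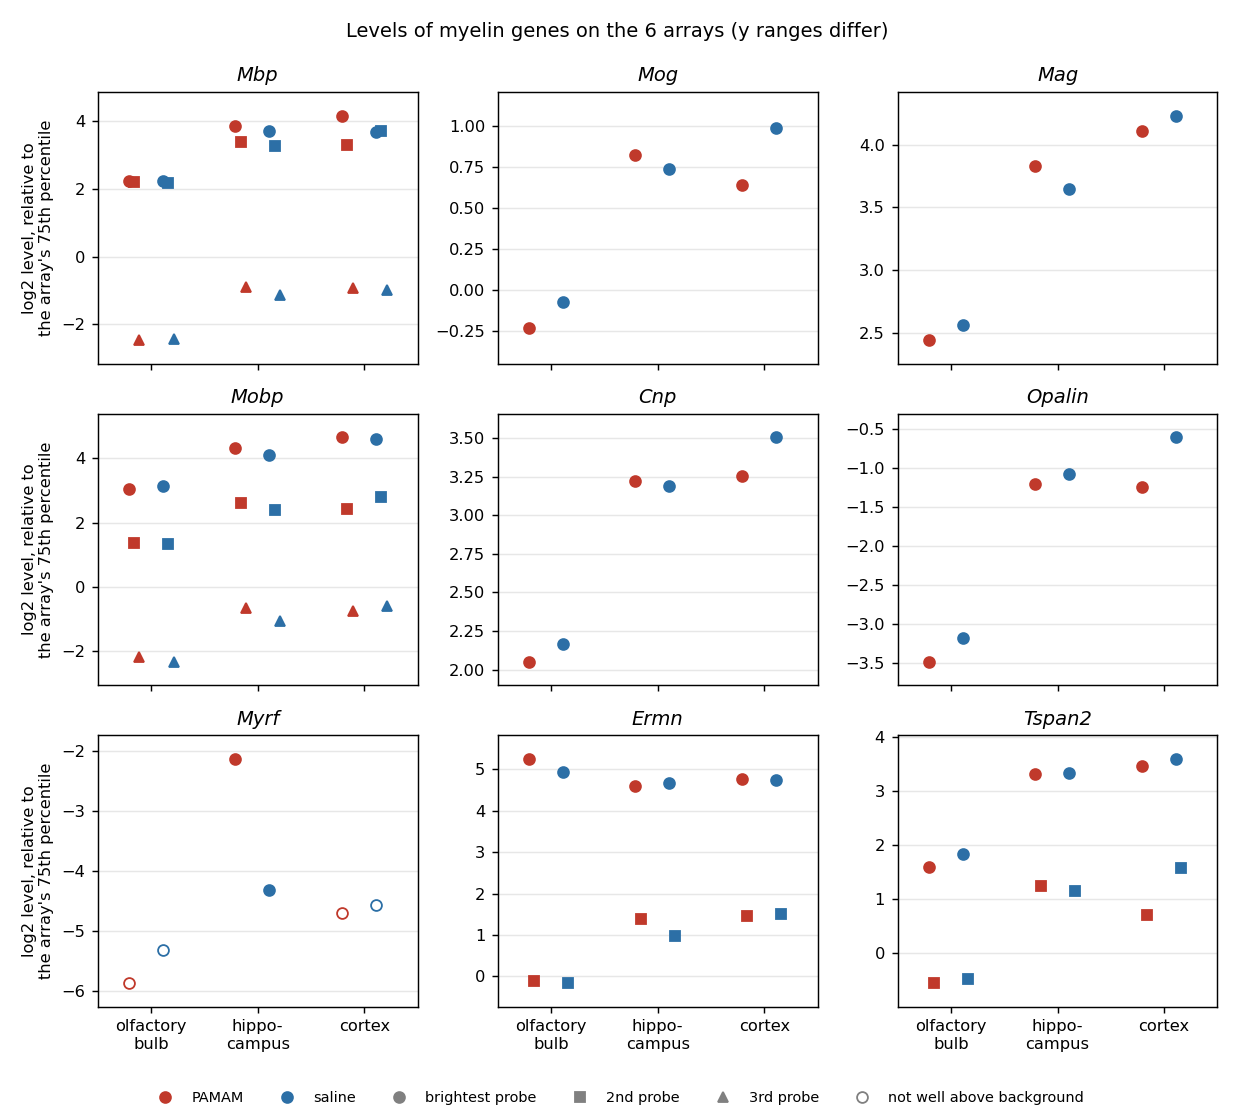
Levels of the 9 genes on the 6 arrays (y axis: log2 level relative to the array's 75th percentile, with a range of its own in each panel; x axis: region; red: PAMAM, blue: saline; marker shape: probe; open: not well above background; each point is 1 array, with no error bar). Both olfactory bulb points lie below the 4 others for every probe except the repeat probe of Ermn (circles), a separation not counted over all probes. For Myrf the olfactory bulb and cortex arrays were not well above background.

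The regions were tested with limma (region and treatment as terms, 6 arrays, adjusted p over 35331 probes). The residual of this fit is how far the PAMAM difference varies from region to region. Its p-values thus measure the spread between these pooled arrays, not between animals. Of the 14 probes well above background on all arrays, the olfactory bulb was lower than the hippocampus for 13, with a median difference of -1.28 over the 14, and higher for the repeat probe of Ermn, at 0.46 ± 0.09 (SE), which did not pass without the PAMAM array of either region (0.29 and 0.34). Over all probes 23.5% were lower and 18.8% were higher in this comparison. The 13 probes were lower, from -2.19 to -0.93, with adjusted p-values of 0.000407 or less (limma).

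Opalin differed most among the probes well above background on all arrays, at -2.19 ± 0.15 (SE, 2 arrays per region), which is 4.55-fold lower in the olfactory bulb than in the hippocampus. Tspan2 probe 1 was lower, at -1.61 ± 0.07 and Mbp probe 1 at -1.56 ± 0.10. Mag was lower, at -1.23 ± 0.09, Mobp probe 1 at -1.11 ± 0.08, Cnp at -1.09 ± 0.08 and Mog at -0.93 ± 0.11. For all 7 of these probes both olfactory bulb arrays lay below both hippocampal arrays. The share of all probes that separate this way was not counted. Since Myrf was not well above background in the olfactory bulb, only a bound is given for it. With the processed signal its level in the hippocampus was at least 3.68-fold higher. This depends on the background correction: with another (normexp) the log2 difference was smaller, at -1.01 for olfactory bulb minus hippocampus. No test is given, since its probe met the filter on dim probes through the hippocampus alone. A single array carries that bound: on the PAMAM arrays it was at least 9.22-fold and on the saline arrays at least 1.47-fold.

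Against the cortex the olfactory bulb was lower for 13 of 15 probes, with a median of -1.53, where 25.8% of all probes were lower and 19.3% higher. Opalin was lower, at -2.40 ± 0.15, Tspan2 probe 1 at -1.82 ± 0.07, Mbp probe 1 at -1.70 ± 0.10 and Mag at -1.67 ± 0.09. Mobp probe 1 was lower, at -1.53 ± 0.08, Cnp at -1.27 ± 0.08 and Mog at -0.97 ± 0.11. The repeat probe of Ermn was higher by 0.34 ± 0.09 (limma adjusted p = 0.0214), but it did not pass with median scaling (0.22) or without the PAMAM olfactory bulb array (0.17). Myrf, not well above background in either region, did not pass.

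All 6 arrays lie on 1 slide. The olfactory bulb arrays share a slide row with the hippocampal saline array, and the hippocampal PAMAM array shares the other row with both cortex arrays. Within the first row, the 13 probes were all lower in the olfactory bulb than in the hippocampus with saline (median -1.15, range -2.10 to -0.81). Across rows, with PAMAM, all 13 were lower too (median -1.50). The 13 probes are those lower in the fit to these same arrays, so their shared direction in each row was nearly fixed in advance. The Ermn repeat probe, left out of the 13, was higher in the olfactory bulb, at 0.27 with saline and 0.66 with PAMAM. Myrf, also left out, was not well above background in the olfactory bulb. The like shares of all probes were not counted. For the olfactory bulb and the cortex, region and row cannot be told apart. The make-up of the tissue differed too: the mean log2 level of 5 markers of ensheathing glia was 3.62 with PAMAM and 3.64 with saline in the olfactory bulb, against 1.68 and 1.69 (hippocampus) and 2.03 and 1.99 (cortex). That of 10 neuron markers was 4.76 with PAMAM and 4.80 with saline in the olfactory bulb, against 5.28 and 5.28 (hippocampus) and 5.45 and 5.34 (cortex). Astrocyte markers lay between 3.35 and 3.50 on all 6 arrays. Of 8 markers of Schwann cells, which make myelin in peripheral nerve, Pmp2 was not detected, and the mean of the other 7 was -1.70 with PAMAM and -1.67 with saline in the olfactory bulb, against -2.52 and -2.72 (hippocampus) and -2.52 and -2.56 (cortex). The part of tissue make-up in the myelin values was not tested.

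Between hippocampus and cortex 2 of the 15 probes passed, both lower in the hippocampus: Mobp probe 1 at -0.43 ± 0.08 (limma adjusted p = 0.0113) and Mag at -0.43 ± 0.09 (limma adjusted p = 0.0170). Over all probes 7.51% were lower and 5.91% higher. Both calls were lost without the hippocampal saline array (-0.31 and -0.28) and without the variance trend, where 0 of 15 passed. Leaving out single arrays, the median over the 15 probes ranged from -0.35 to -0.024, while Myrf ranged from 0.15 to 2.67. Its probe met the filter on dim probes through the hippocampus alone, so that its sign was nearly fixed in advance. Within a slide row, on the PAMAM arrays, the hippocampus was lower, at -0.35 for Mobp probe 1 and at -0.28 for Mag. The direction over the 13 probes differed between treatments: with PAMAM the hippocampus was higher for 7 of 13 and lower for 6 (median 0.04), and with saline it was higher for 1 and lower for 12 (median -0.43).

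**Figure D2:**
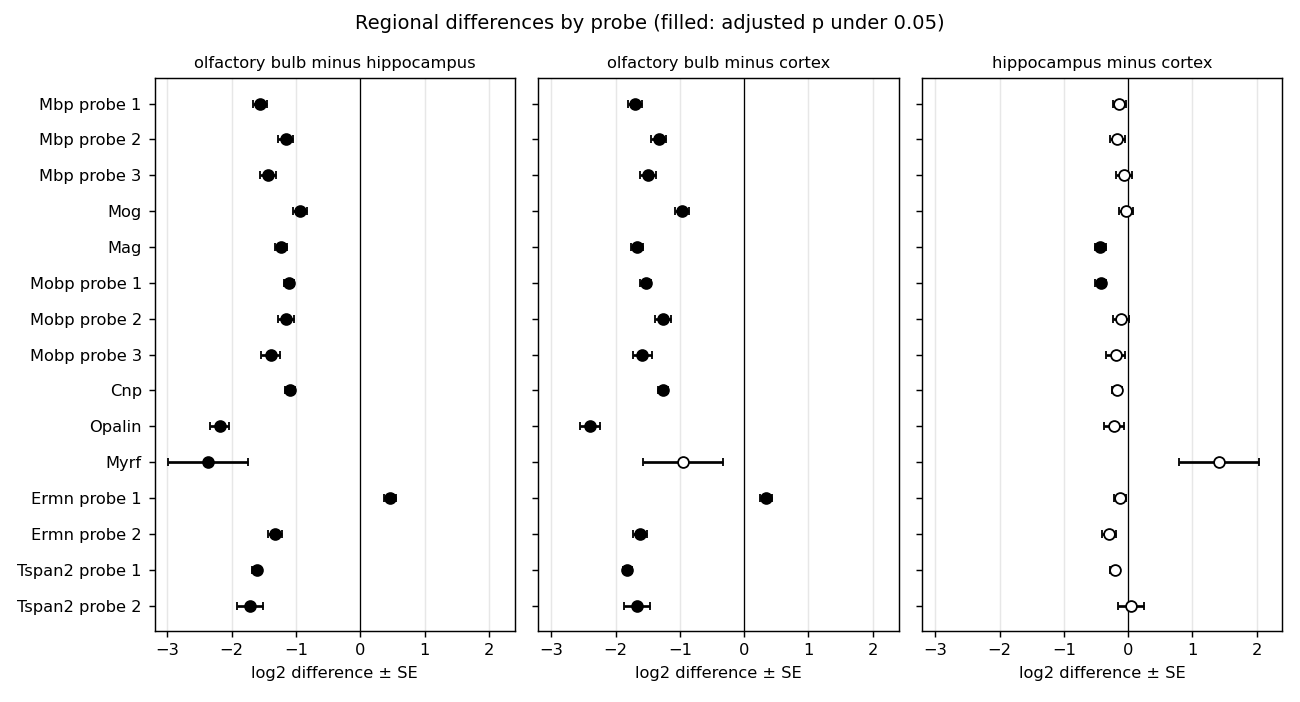
Regional log2 differences of the 15 probes (x axis, ± SE of the limma fit, 2 arrays per region; filled: adjusted p under 0.05). The olfactory bulb lies left of 0 against both other regions for all probes except Ermn probe 1, the repeat probe, at 0.46 and 0.34, Myrf met the filter on dim probes through the hippocampus alone, and hippocampus minus cortex lies near 0 for most, with Mag and Mobp probe 1 at -0.43.

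The repeat probe of Ermn was set beside the 43 other probes on the array that hold the same 19-base GAA run, a comparison made after its values were seen and given without a test. Of these 43 probes of other genes, 42 lay above 0 for olfactory bulb minus hippocampus (median 0.34) and 41 for olfactory bulb minus cortex (median 0.24). Over all 35331 probes tested, 17118 and 17203 lay above 0. The repeat probe of Ermn lay at 0.46 and 0.34 in these 2 comparisons, and the other Ermn probe at -1.32 and -1.62. In the olfactory bulb, PAMAM minus saline was above 0 for 43 of 43 such probes (median 0.16, range 0.06 to 0.36). This held for 48.9% of all probes well above background on both arrays. The difference was 0.32 for the Ermn repeat probe and 0.05 for the other Ermn probe. Both probes of Ermn are given where single probes are described, while summaries by gene use its brightest probe, the one with the repeat.

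Promoters of 7 of the 9 genes were matched by symbol in a RefSeq table (build GRCm38.p6), and Mbp and Myrf had no entry in it. Because these genes differed together between regions, the 250 bases before the start were searched on both strands for the SOX motifs ACAAAG and AACAAT, the MYRF motif CTGGCAC or CTGGTAC, and the E-box CAGCTG. The matches in the promoters printed did not overlap. With 1 start per gene, the first in the table, ACAAAG was found in 4 of 7 genes (Mag, Mobp, Cnp and Opalin) and in 16.5% of 27025 promoters, and the MYRF motif in 3 of 7 (Mag, Cnp and Mog) and in 5.86%. AACAAT and CAGCTG were in 0 of 7 genes, and in 9.65% and 12.8% of promoters. Another listed start of Tspan2 also had ACAAAG before it, while another listed start of Mag had none of these motifs. A match describes letters and not a site in use. The promoters of the 3 genes with the MYRF motif follow, with that of Mobp, which held ACAAAG 6 times. They lie at chr7:30914923-30915172 (Mag, minus strand, before the most upstream of its starts in the table), chr11:100574689-100574938 (Cnp, plus), chr17:37023399-37023648 (Mog, minus) and chr9:120149492-120149741 (Mobp, plus), and capitals mark the motifs on either strand.
Mag: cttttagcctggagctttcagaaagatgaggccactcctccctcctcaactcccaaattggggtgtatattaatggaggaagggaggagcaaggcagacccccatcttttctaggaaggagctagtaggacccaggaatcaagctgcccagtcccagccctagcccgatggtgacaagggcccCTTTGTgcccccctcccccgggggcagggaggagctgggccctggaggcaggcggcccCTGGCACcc
Cnp: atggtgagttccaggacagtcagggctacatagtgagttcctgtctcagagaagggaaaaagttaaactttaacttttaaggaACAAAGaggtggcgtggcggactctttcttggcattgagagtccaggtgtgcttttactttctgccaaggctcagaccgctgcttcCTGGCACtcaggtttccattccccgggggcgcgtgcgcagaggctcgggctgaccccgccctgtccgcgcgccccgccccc
Mog: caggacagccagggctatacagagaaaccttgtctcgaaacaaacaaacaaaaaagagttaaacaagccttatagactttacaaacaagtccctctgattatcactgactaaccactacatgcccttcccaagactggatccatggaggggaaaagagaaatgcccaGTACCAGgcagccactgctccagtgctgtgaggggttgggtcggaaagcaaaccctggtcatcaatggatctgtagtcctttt
Mobp: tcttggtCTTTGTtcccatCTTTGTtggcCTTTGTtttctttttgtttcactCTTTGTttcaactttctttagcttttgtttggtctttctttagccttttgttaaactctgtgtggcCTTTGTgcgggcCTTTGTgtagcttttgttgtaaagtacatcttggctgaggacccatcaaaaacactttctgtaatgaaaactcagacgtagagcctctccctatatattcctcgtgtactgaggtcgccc

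PAMAM was set against saline within each region, which asks how the dose left myelin genes in that piece of brain. With 1 array for each group there is no replicate and no p-value, and the only error at hand is that of repeated spots. The SD that spot noise gives to such a difference was 0.09 for olfactory bulb and hippocampus and 0.10 for cortex, so 2 SD is 0.19, 0.19 and 0.20. Probes are counted as beyond spot noise past that limit, which leaves out labelling, hybridisation and animals. It comes from the median SD of repeated probes well above background and is the same for bright and dim probes. Each of the 15 probes has 1 spot.

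In the olfactory bulb the split of the myelin probes was near that of all probes. Of 14 probes well above background, 6 lay above 0 and 8 below (median -0.05), where 48.9% and 51.1% of all probes did. Beyond spot noise, 2 were lower and 1 higher, against 14.3% and 12.1% of all probes. Those lower were Opalin, at -0.31, and Tspan2 probe 1, at -0.25, and the one higher was the repeat probe of Ermn, at 0.32. Mbp differed by 0.01, 0.03 and -0.02 on its 3 probes, Mobp probe 1 by -0.08, Mag and Cnp by -0.12 each and Mog by -0.16. By the brightest probe of each gene, 2 of 8 measured genes were above 0 and 6 below (median -0.12; all genes 47.3% above, 52.7% below and a median of -0.01).

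In the hippocampus most probes were slightly higher with PAMAM. Of 15 probes 12 lay above 0 and 3 below (median 0.17), where 50.7% and 49.3% of all probes did, and 7 were higher and 0 lower beyond spot noise, where 15.9% of all probes were higher and 13.3% lower. The 7 were the Mobp probes at 0.21, 0.23 and 0.39, Mbp probe 3 at 0.23, the Ermn probe without the repeat at 0.40, Mag at 0.19 and Myrf at 2.18. Mag passed the limit only narrowly (0.18812 against 0.18808). Median scaling moved all differences by -0.068, and with it Mag was at 0.12 and Mobp probe 1 at 0.14, so the count of 7 depends on the scaling. The 3 below 0 were Opalin (-0.13), the repeat probe of Ermn (-0.07) and Tspan2 probe 1 (-0.03). By the brightest probe, 6 of 9 genes were above 0 and 3 below, with a median of 0.09, where 51.2% of all genes were above 0 and 48.8% below. With Ermn by its other probe 7 of 9 were above 0, with a median of 0.17. With median scaling the gene median was 0.02, and that of all genes -0.06.

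Myrf in the hippocampus was the only difference of at least 2-fold among the 9 genes in any region, where 0.582% of all genes measured there reached 2-fold upwards and 0.0672% downwards. The like shares past 2-fold were 0.0515% up and 0.206% down for the olfactory bulb, and 0.352% up and 0.417% down for the cortex. The processed signal of Myrf was 124.7 on the PAMAM array and 32.3 on the saline array, a 4.53-fold difference once each is divided by its array's 75th percentile, carried by 1 spot on each. With another background correction (normexp) the log2 difference was 1.14. In the other regions the signal was 12.2 with PAMAM and 17.0 with saline (olfactory bulb), and 17.4 with PAMAM and 22.8 with saline (cortex), none of them well above background.

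The 2 hippocampal arrays lie in different slide rows, so treatment and row cannot be told apart there. Markers of neighbouring tissue also differed between them. All 11 choroid plexus markers were higher with PAMAM (median 0.82), with a summed linear level of 280.1 with PAMAM and 173.0 with saline, in units of the array's 75th percentile. Of the red blood cell markers 4 of 4 measured were higher (median 0.55; summed level 46.0 with PAMAM and 32.1 with saline), and of the thalamus markers 6 of 7 (median 0.70; 17.9 with PAMAM and 12.6 with saline). The summed level of the 9 myelin genes was 94.4 with PAMAM and 89.4 with saline. Of the region markers, 5 of 6 of the hippocampus were lower (median -0.19; 16.4 with PAMAM and 18.3 with saline) and 5 of 6 of the cortex higher (median 0.32; 20.5 with PAMAM and 17.5 with saline). The part of these tissues in the myelin values was not tested.

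In the cortex most probes were lower with PAMAM, and probes of one gene differed. Of 14 probes 4 lay above 0 and 10 below (median -0.15), where 49.6% and 50.4% of all probes did. Beyond spot noise 6 were lower and 1 higher, against 22.6% and 15.9% of all probes. Those lower were Tspan2 probe 2 (-0.87), Opalin (-0.63), Mbp probe 2 (-0.41), Mobp probe 2 (-0.36), Mog (-0.35) and Cnp (-0.25), and the one higher was Mbp probe 1 (0.47). Mag differed by -0.12, the 2 Ermn probes by 0.03 and -0.04.

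Within 3 genes the cortex probes disagreed by more than spot noise. Mbp probe 1 read 4.16 with PAMAM and 3.69 with saline, while probe 2 read 3.31 with PAMAM and 3.72 with saline, and probe 3 read -0.94 with PAMAM and -0.97 with saline. The array files assign probe 1 and probe 2 to different Mbp transcript variants, and probe 3 to that of probe 2. They assign both Tspan2 probes to the same transcript. The cause of the disagreement between probes was not tested. Tspan2 probe 1 read 3.47 with PAMAM and 3.59 with saline. Its probe 2 read 0.72 with PAMAM and 1.59 with saline. Mobp probe 1 differed by 0.04, probe 2 by -0.36 and probe 3 by -0.17. In the olfactory bulb the differences of the probes of each of these genes ran from -0.02 to 0.03 for Mbp, from -0.25 to -0.07 for Tspan2 and from -0.08 to 0.14 for Mobp.

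By the brightest probe, 3 of 8 genes in the cortex were above 0 and 5 below, with a median of -0.12, where 53.5% of all genes were above 0, 46.5% were below and the median of all genes was 0.02. With median scaling all genes moved by 0.11 in this region, and the myelin median became -0.01 beside 0.12 for all genes, so that it stayed -0.14 from the median of all genes under both. Here too other markers differed between the arrays. All 9 meninges markers (median 0.89; summed level 17.3 with PAMAM and 8.96 with saline) and all 8 measured choroid plexus markers (median 1.22; mean log2 level of the list -1.52 with PAMAM and -3.05 with saline) were higher with PAMAM, as were 3 of 3 measured red blood cell markers (median 0.49) and 8 of 10 neuron markers (median 0.17). Other lists were lower: 5 of 6 cortical markers (median -0.24; summed level 40.6 with PAMAM and 44.4 with saline) and 5 of 8 thalamus markers (median -0.27; 13.8 with PAMAM and 15.5 with saline). The part of these tissues in the myelin values of the cortex was not tested.

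**Figure D3:**
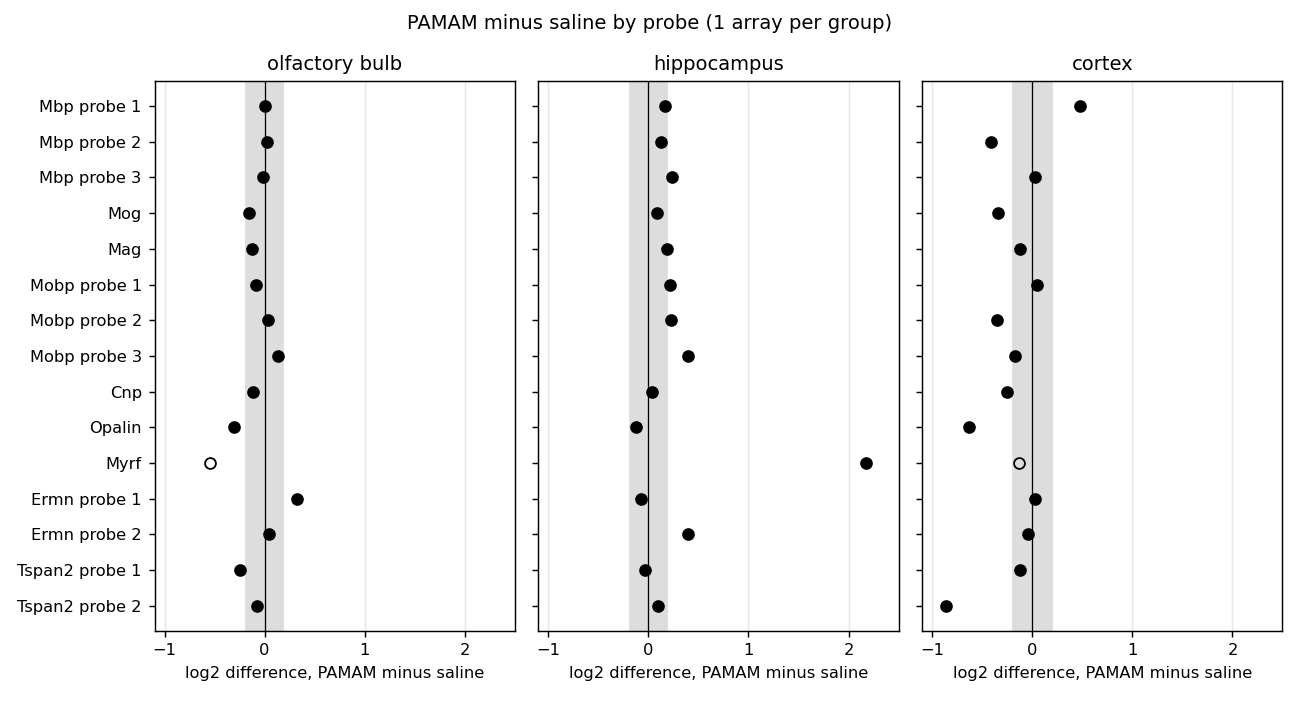
PAMAM minus saline by probe in each region (x axis: log2 difference between 2 arrays, no replicates; grey band: 2 SD of spot noise; open: not well above background). In the hippocampus 12 of 15 points lie right of 0 and Myrf stands alone at 2.18; in the cortex 10 of 14 measured points lie left of 0 and the probes of Mbp spread from -0.41 to 0.47.

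A difference with PAMAM that all 3 regions share was tested with the limma fit. Of the 15 probes 0 passed, as did 0 of 35331 on the array (0%), where 2212 had an unadjusted p under 0.05. Opalin had the largest shared difference among probes well above background on every array, at -0.36 ± 0.12 (SE, limma adjusted p = 0.770), and Mbp probe 1 had 0.22 ± 0.09 (SE, limma adjusted p = 0.785). These were the 2 of the 15 probes with an unadjusted p under 0.05. Opalin was lower with PAMAM in 3 of 3 regions. Mbp probe 1 differed by 0.01 in the olfactory bulb, within spot noise, and Mbp probe 2 had a shared difference of -0.09.

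Other genes of the oligodendrocyte lineage were described from 4 lists. Of 20 further myelin genes, 16 were lower and 2 higher in the olfactory bulb than in the hippocampus (median -0.89), and likewise 16 lower and 2 higher than in the cortex (median -1.01). Over all 24343 genes tested 6319 were lower and 4624 higher against the hippocampus, and 7065 lower and 4540 higher against the cortex. Cldn11, the tight-junction protein of myelin, was lower, at -1.23 and -1.42 in these 2 comparisons, and Omg, a surface glycoprotein of oligodendrocytes and neurons, at -1.79 and -1.92. Apod (apolipoprotein D) went the other way, higher by 2.06 ± 0.09 and by 1.67, as did the actin-binding Gsn, by 0.87 and 0.69.

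The other 3 lists held genes in both directions. Of 10 enzymes of myelin lipid, 4 were lower and 1 higher in the olfactory bulb than in the hippocampus (median -0.25), and 8 lower and 1 higher than in the cortex (median -0.45). Ugt8a and Fa2h, which make the galactosylceramide of myelin and its hydroxylated form, were lower, at -0.98 and -1.26 against the hippocampus. Of 10 transcriptional regulators 7 were lower and 1 higher against the hippocampus (median -0.42). St18 was lower, at -2.80 ± 0.24, while Sox10, which oligodendrocytes share with ensheathing glia of the olfactory bulb, was higher by 0.31. Of 12 markers of precursors and new oligodendrocytes, 5 were lower and 4 higher against the hippocampus (median -0.17). The proteoglycan gene Cspg4 was lower, at -0.79 and the growth-factor receptor gene Pdgfra at -0.50, and Lhfpl3 was higher by 2.09 ± 0.12.

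Against the cortex, Lhfpl3 was higher by 2.13 in the olfactory bulb, and the lipid phosphatase gene Sgpp2 had a measured difference of -2.28, with only 1 of the 2 olfactory bulb arrays well above background. Of the regulators 6 were lower and 1 higher against the cortex (median -0.48), and of the precursor markers 5 and 5 (median -0.25). Between hippocampus and cortex, St18 was higher in the hippocampus by 2.30 ± 0.24 (limma adjusted p = 0.000919), Sgpp2 lower, at -1.42 (limma adjusted p = 0.0372) and Bmp4 lower, at -0.66 (limma adjusted p = 0.0174). In that comparison 5 of the 20 further myelin genes were lower and 0 higher, where 2133 of all 24343 genes were lower and 1519 higher.

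**Figure D4:**
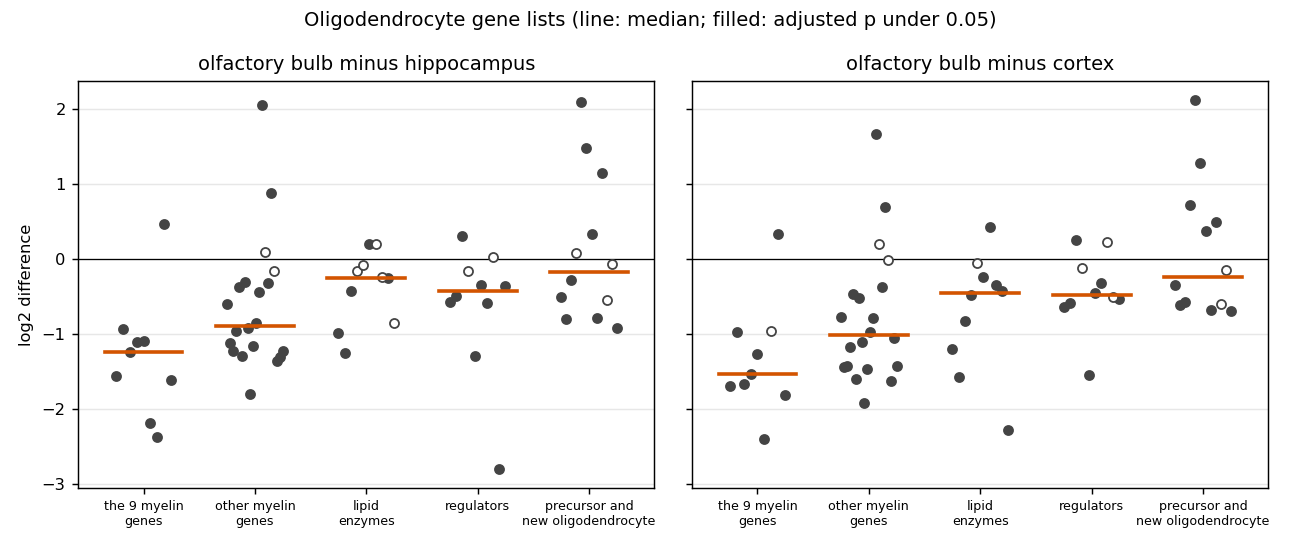
Regional log2 differences (y axis) of the 9 myelin genes by their brightest probe and of 4 further lists of the oligodendrocyte lineage (x axis; each point 1 gene, line: median, filled: limma adjusted p under 0.05). The medians for olfactory bulb minus hippocampus are -1.23, -0.89, -0.25, -0.42 and -0.17 from left to right.

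With PAMAM the medians of these lists lay between -0.12 and 0.05. The further myelin genes had medians of -0.05, 0.05 and -0.09 in olfactory bulb, hippocampus and cortex, with 13 of 20 below 0, 15 of 20 above 0 and 15 of 20 below 0. The lipid enzymes had medians of -0.09, 0.02 and -0.12 in the same order, the regulators -0.12, -0.02 and -0.12, and the precursor markers -0.05, -0.04 and -0.11. Of all genes, 52.7% were below 0 in the olfactory bulb, 51.2% above 0 in the hippocampus and 46.5% below 0 in the cortex. In the olfactory bulb 9 of 10 regulators were below 0. Beyond spot noise, 4 of 10 regulators, 3 of 20 further myelin genes and 2 of 9 measured lipid enzymes were lower there and 1 of 12 precursor markers was higher, where 13.6% of all genes were lower and 10.1% higher. In the hippocampus 3 further myelin genes, 2 lipid enzymes, 1 regulator and 1 precursor marker were higher and 1 precursor marker was lower, where 15.3% of all genes were higher and 11.7% lower. In the cortex 4 further myelin genes, 3 lipid enzymes, 4 regulators and 3 precursor markers were lower, and 1 further myelin gene and 2 precursor markers were higher, where 18.9% of all genes were lower and 16.6% higher. None of the 4 lists had a gene that passed the limma test of a difference shared by the regions.

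The largest differences with PAMAM in these lists lay in the cortex, where the sialidase gene Neu4 differed by 0.89, Sgpp2 by -0.85 and St18 by -0.79, all 3 of them dim. In the olfactory bulb Neu4 differed by 0.44, Evi2a by -0.39 and St18 by -0.31. In the hippocampus Olig2, a transcription factor that sets oligodendrocyte fate, differed by 0.30, Lhfpl3 by -0.26 (its other probe by -0.12) and Ugt8a by 0.25.

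The pattern over the 6 arrays was compared with that of 21092 genes well above background on all of them. Each gene's profile was centred on its own mean and set against the mean profile of 8 of the 9 genes (without Myrf, with Ermn by its repeat probe), by the root mean square difference, for which the median gene lay at 0.60. Among the 10 genes most alike were Plk5 (0.0357), 1700047M11Rik, Gm10419, Cldn11 (0.0530), Sgk1, Ppp2r2c, Cyfip2, Kifc2 and 9630041G16Rik (0.0599). Cldn11 is from the further myelin list, as is Mal, a proteolipid of myelin, which had 10 genes closer to the mean profile. Of the 9 genes themselves, Cnp was nearest to the mean of the others (0.0682), followed by Mobp (0.126), Mag (0.147), Mog (0.207), Tspan2 (0.247), Mbp (0.281) and Opalin (0.587). The repeat probe of Ermn was farthest, at 0.912. These are 6 arrays whose profile is mostly the difference between olfactory bulb and the rest, so likeness here is a description.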

How the data were processed

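The members and gene lists were chosen with earlier results of these data known. Linear intensity of each spot was read from the deposited scanner output, made by the authors with Agilent Feature Extraction 10.7.3.1 on a G2505C scanner (array design 028005), per the file headers; probe coordinates are mm9. Their well-above-background and outlier flags were used as deposited. A second table deposited by the authors holds log2 values of unstated scale and centring; its columns have medians of -0.0617 and -0.0906 (PAMAM and saline, olfactory bulb), 0.0252 and -0.0459 (hippocampus) and 0.0347 and 0.0432 (cortex). Over 29549 probes it followed the scaled scanner values minus each probe's median (r of 0.999867 or higher, largest residual 0.0233), which settles log2 scale and direction; treatment of repeated spots stays unknown.

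From the processed signal, log2 was taken, the array's 75th percentile subtracted (709.6 and 679.1, 547.1 and 640.5, 452.0 and 541.6 in the same order), outlier spots dropped and spots of a probe averaged. Probes well above background on at least 2 arrays (35331) were fitted with limma 3.58.1 in R 4.3.3 (region plus treatment, lmFit, eBayes with trend, Benjamini-Hochberg, 2 residual degrees of freedom). Genes are represented by their brightest probe; 27235 of 55681 probes took a symbol through RefSeq accessions. Named are all 9 genes, by all probes; from the 4 lineage lists the 3 with the largest difference per comparison, plus examples chosen after their values were seen; and genes among the 10 most alike. Some genes that this rule or the lists cover are not reported here. The fit was tested on simulated data. Groups came from the labels, which give no replicate numbers. Alternatives are given in the closing section.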

Additional observations from a re-analysis of the deposited data

Results flagged for a closer look

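The median PAMAM minus saline difference of the myelin genes had opposite signs between regions, although genes lay on both sides of 0 in each. By the brightest probe of each gene the median log2 difference was -0.12 (olfactory bulb), 0.085 (hippocampus) and -0.12 (cortex). The hippocampal value is under 1 SD of spot noise (0.094) and was 0.018 with median scaling. Mag, which holds the inner wrap of myelin to the axon, was at -0.12 (olfactory bulb), 0.19 (hippocampus) and -0.12 (cortex). With median scaling Mag was at -0.11, 0.12 and -0.013 in the same order, the last of these under 1 SD of spot noise (0.098). Among genes well above background on both arrays of the regions compared, in the main scaling, Mag alone had opposite differences in 2 regions past 1 SD of spot noise in both, by the brightest probe. Dimmer probes did so too between hippocampus and cortex: Mobp probe 2 (0.23 and -0.36), Mobp probe 3 (0.39 and -0.17), Mbp probe 2 (0.12 and -0.41) and Tspan2 probe 2 (0.10 and -0.87). The share of all genes that do so was not counted. With 1 array per group, these differences between regions were not tested.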

How the results depend on the processing

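The 3 regional counts, the 3 regional medians with PAMAM and each probe's differences were recomputed with other background, scaling and filters, without trend, from the authors' value table and leaving out arrays. The 13 probes kept their calls in both olfactory bulb comparisons under every alternative. The median with PAMAM in the cortex was -0.015 with median scaling, against -0.12. The counts given next for hippocampus minus cortex take both directions together. The call left without the saline hippocampus array was Myrf, higher in the hippocampus at 2.67, whose probe met the filter through the hippocampus alone. Among the calls without the saline cortex array, Tspan2 probe 2 was higher, at 0.49, and the others were lower. All calls without the PAMAM cortex array were lower in the hippocampus. For hippocampus minus cortex 2 of 15 probes passed, against 0 in the authors' table and 0 without trend, and 1 to 7 leaving out single arrays (1 without the saline hippocampus, 7 without the PAMAM cortex and 4 without the saline cortex). Over all probes that count was 4739, against 1509, 1406 and 1802 to 5980. Olfactory bulb minus hippocampus gave 14944, against 9569 to 9982 leaving out single arrays, and minus cortex 15942, against 10177 to 16208. The shared PAMAM difference passed for 0 probes, against 14 with median scaling, 65 with no filter and 4, 0 and 39 without the olfactory bulb, hippocampus or cortex. Of the 15942 calls 6822 were higher, against 5124 of 16000 with median scaling, which moved the median of all probes to -0.14.

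The calls of Ermn's repeat probe (olfactory bulb higher) were lost in the authors' table, without trend, without the PAMAM olfactory bulb array (0.29 against hippocampus and 0.17 against cortex), against the hippocampus without its PAMAM array (0.34) and against the cortex with median scaling (0.22); the cause was not tested. In the fits, signs turned as follows. In the shared difference, without single regions, Mag ranged from -0.12 to 0.034 (0.000582 with median scaling), Ermn's repeat probe -0.024 to 0.17, the Mobp probes -0.020 to 0.13, -0.16 to 0.13 and -0.017 to 0.27, Myrf -0.34 to 1.02, Mbp probe 2 -0.19 to 0.075 and Tspan2 probe 2 -0.47 to 0.012. In hippocampus minus cortex, without single arrays, Tspan2 probe 2 ranged from -0.39 to 0.49 (-0.0075 with median scaling), the Mbp probes -0.33 to 0.054, -0.41 to 0.075 and -0.17 to 0.051, Mog -0.20 to 0.14, and Mobp probes 2 and 3 -0.35 to 0.14 and -0.41 to 0.027. Of PAMAM minus saline by gene, the sign turned in the olfactory bulb for Mbp (-0.0022 with normexp) and Mobp (0.034 by the median probe), in the hippocampus for Cnp (-0.034 with median scaling), Tspan2 (0.033 by the median probe) and Ermn (0.16 by the median probe, 0.40 by its other probe), and in the cortex for Mobp (-0.036 with quantile normalisation, -0.17 by the median probe) and Ermn (-0.051 with quantile normalisation, -0.0092 by the median probe and -0.045 by its other probe). No paired analysis was possible because the labels carry no replicate numbers and each group has 1 array.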
